A study of Mus musculus with 10 samples.

Results

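Of the 123652 peaks that the authors called in wild type organoids, 475 lay in mostly unmasked sequence away from promoters. They were chosen by sequence and position alone. A peak was a member if it was on chromosomes 1 to 19, X or Y, if under 25% of the 200 bp around its midpoint were soft-masked, and if the midpoint was not within 1000 bp upstream to 100 bp downstream of any transcript start. Soft-masked bases are those printed in lower case in the genome sequence because they belong to interspersed or simple repeats. Across the 123366 peaks on those chromosomes, the median window was 86.5% masked, and 560 peaks met the limit on masking before promoters were left out.

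The peaks mark where an antibody against the aryl hydrocarbon receptor (AHR) recovered DNA in ChIP-seq, the sequencing of immunoprecipitated chromatin, from mouse colon organoids, which are epithelial cultures grown from crypts. All organoids, wild type and AHR KO, were kept in WENR medium, which contains Wnt3a, and were stimulated for 1 hour with FICZ, an AHR ligand, at 5 nM. Wild type had 4 AHR ChIP libraries and 4 input libraries, and AHR KO had 1 of each. The deposited lists hold 1 set of peaks per genotype, with no value per culture, so no difference between genotypes has a replicate check. The study's methods describe the AHR-deficient organoids as derived from Vil Cre Ahr fl/fl mice, in which Cre is driven by the villin promoter of the intestinal epithelium. Organoids of both genotypes are described in the methods as made from 4 biological replicates, but the labels list 1 AHR KO ChIP library and do not say whether it pools them.

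AHR is a member of the bHLH-PAS family of DNA-binding proteins, and its partner on DNA is ARNT. The pair recognises short DNA elements with the core GCGTG, best known as TNGCGTG in the control regions of the Cyp1 genes. Many of its sites lie in enhancers, which are stretches of DNA away from promoters that act on genes at a distance, and other factors such as AP-1 and TEAD often bind enhancers of epithelial cells. ChIP-seq peaks in repeats are harder to place than peaks in unique sequence, because a read from a repeat can match several positions.

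Sequences are given first for 6 members that held TNGCGTG, 5 of the highest-scoring ones and the one nearest to Cdx2, which encodes a homeodomain factor of intestinal identity. Each is the 200 bp around the midpoint on mm10 (GRCm38), read on the forward strand, and the capitals mark TNGCGTG on either strand. The first lies at chr3:65659361-65659560, the second at chr8:77433421-77433620, the third at chr13:74259951-74260150, the fourth at chr2:131478458-131478657, the fifth at chr6:17171224-17171423 and the sixth at chr5:147299563-147299762. They are named by the nearest protein-coding gene.
Lekr1: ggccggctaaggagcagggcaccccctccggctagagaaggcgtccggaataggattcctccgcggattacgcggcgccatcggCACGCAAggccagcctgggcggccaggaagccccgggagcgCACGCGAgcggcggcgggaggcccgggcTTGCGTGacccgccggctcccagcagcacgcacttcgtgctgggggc
Arhgap10: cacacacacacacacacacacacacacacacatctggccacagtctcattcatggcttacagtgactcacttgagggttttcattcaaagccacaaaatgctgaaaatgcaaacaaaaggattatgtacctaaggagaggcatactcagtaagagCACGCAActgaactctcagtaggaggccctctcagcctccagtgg
Ahrr: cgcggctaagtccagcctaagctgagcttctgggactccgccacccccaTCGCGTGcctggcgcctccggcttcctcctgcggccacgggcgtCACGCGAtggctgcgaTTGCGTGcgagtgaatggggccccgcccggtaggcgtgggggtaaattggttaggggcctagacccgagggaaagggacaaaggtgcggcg
Smox: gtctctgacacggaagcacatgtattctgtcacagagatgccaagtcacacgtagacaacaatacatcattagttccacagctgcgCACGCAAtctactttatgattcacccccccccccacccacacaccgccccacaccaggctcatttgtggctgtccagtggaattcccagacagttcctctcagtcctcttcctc
Tes: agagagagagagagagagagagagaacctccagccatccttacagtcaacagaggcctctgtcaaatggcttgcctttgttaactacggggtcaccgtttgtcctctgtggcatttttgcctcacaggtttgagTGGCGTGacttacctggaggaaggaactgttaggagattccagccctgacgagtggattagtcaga
Cdx2: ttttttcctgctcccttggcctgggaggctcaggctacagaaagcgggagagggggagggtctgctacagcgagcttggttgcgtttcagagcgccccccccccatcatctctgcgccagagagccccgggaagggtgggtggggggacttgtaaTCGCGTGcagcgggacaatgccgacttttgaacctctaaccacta
The Lekr1 and Ahrr windows each held 3 copies of the word, and the other 4 held 1. The Arhgap10 window opened with a run of CA, and the Tes window with a run of AG.

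The most common arrangement among the members was different and is shown by the fourth-ranked peak, near Palld, in the 300 bp at chr8:61606728-61607027. Here the capitals mark runs of 3 or more copies of CA or TG.
Palld: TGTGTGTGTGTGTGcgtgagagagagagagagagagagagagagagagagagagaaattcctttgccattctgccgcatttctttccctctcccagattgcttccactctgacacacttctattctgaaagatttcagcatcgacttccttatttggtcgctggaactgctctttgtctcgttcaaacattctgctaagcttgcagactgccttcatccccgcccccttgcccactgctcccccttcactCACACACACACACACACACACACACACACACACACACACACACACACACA
The stretch has no TNGCGTG, and simple repeats stand at both of its ends.

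CA repeats stood beside most of the members. A CA repeat was counted where the 500 bp on either side of the midpoint held CACACA or TGTGTG 3 times or more without overlap, a definition chosen after the peaks had been seen. By this count 424 of the 475 members (89.3%, 95% Wilson interval 86.2 to 91.7) had a CA repeat nearby, against 63.9% of all wild type peaks. In the 1134 peaks outside promoters that were 25 to 30% masked, just past the limit, the share was higher still, at 98.2% (97.3 to 98.9). The share was 24.9% (20.6 to 29.6) in 354 flanks, which are windows 2 kb to one side of a member that met the same limits and touched no peak, and 21.4% among 1290266 windows taken every 1000 bp of the genome under the same limits. Among members that had a flank, the share was 65.0 percentage points higher than in the flanks (Newcombe interval 59.01 to 69.996). The controls were not matched on masking. The median masked share was 9.5% in flanks and in genome windows, against 19% in the members. Within the 200 bp window itself, 34.3% of members and 0.579% of genome windows had a CA repeat. All intervals in the text cover counting error only.

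The repeats lay just outside the window on which the members were chosen. The share of members with a CA run was 18.5% in the 50 bp left of the midpoint and 19.6% in the 50 bp right of it. It rose to 47.4% between 150 and 100 bp on the left and to 45.1% between 100 and 150 bp on the right, and beyond 250 bp on either side it was between 5.47% and 11.6%. In every 20th peak that was at least 50% masked, the profile had its maximum at the centre, at 42.9% and 43.1%. The dip at the centre of the members follows in part from the rule, which removed windows that are mainly repeat. Repeats were present 100 to 500 bp away on both sides of 180 members and on 1 side of 153, while 163 members had a CA repeat within the 200 bp window itself.

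**Figure D1:**
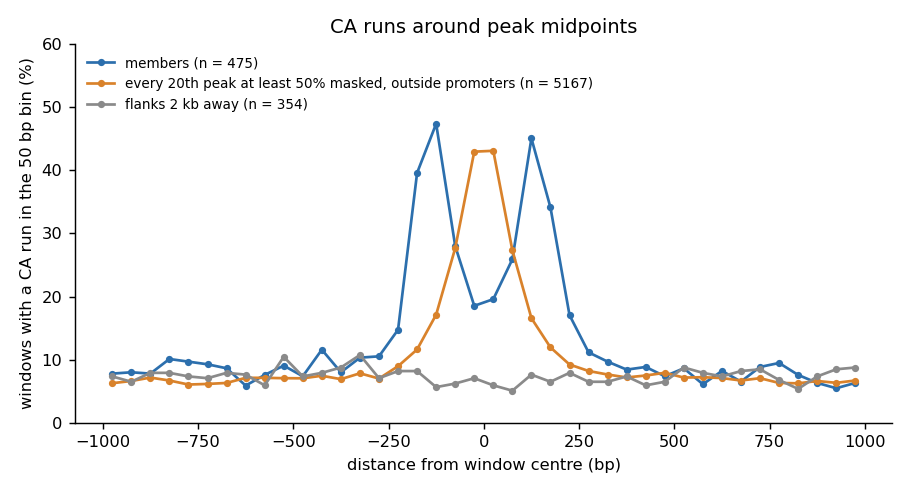
Share of windows (%) with a run of 3 CA or TG copies in each 50 bp bin, against distance from the midpoint in bp, for the 475 members, their 354 flanks and every 20th peak that was at least 50% masked outside promoters (n = 5167). The members have shoulders of 47.4% and 45.1% on the left and right of a lower centre, the masked peaks have a single central maximum of 43.1%, and the flanks are flat.

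GA runs, counted by the same rule, were within 500 bp of 175 members (36.8%, Wilson 32.6 to 41.3) and of 42 flanks (11.9%, 8.90 to 15.6). Of those 175 members, 161 also had a CA repeat. The remaining 14 were among the 51 members without one, and the highest-scoring of the 51, the peak 280524 bp from Klf5, is described with the strongest peaks. The masked share of the deposited peak was higher than that of the window. Its median was 33.8% over the whole peak against 19% in the window, and members were wider than wild type peaks in general, with a median of 379 bp against 227 bp. Members without a CA repeat had a median width of 244 bp.

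The name "unique sequence" was checked against the genome. Each window was cut into words of 31 bases, and each word was counted in the whole assembly. No word had a second copy in 263 members (55.4%, Wilson 50.9 to 59.8), at least 50% of the words had one in 32 members (6.74%, 4.81 to 9.36), and all of the words had one in 21. Over all wild type peaks, at least 50% of the words were found elsewhere in 49.5%, and in the flanks this was so for 5 of 354. The limit on masking therefore left 32 members whose sequence was not unique by this count, and they were kept in all totals. No window shared words with the mitochondrial genome.

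Of these 32 members, 16 came from 1 place. Within chr6:47655099-47772565, a span of 117 kb between Ezh2 and Pdia4, on the Ezh2 side of the small RNA genes Rny3 and Rny1, there were 16 members among 58 wild type peaks. In all 16, every 31-base word was found elsewhere, with a median of 11.5 to 16 copies. Of the 16, 15 were linked through pairs of windows that shared at least 50% of their words. The links need not hold between every pair of the 15. Of the 14 spacings between neighbours of these 15, 11 were between 4000 and 4600 bp, which is the layout of a tandem array. Scores in the array were low, from 3.25 to 5.48. All 16 had a CA repeat within 500 bp, 7 held GCGTG, none held TNGCGTG (0 of 16 allows a share of up to 18.8%) and none overlapped an AHR KO peak.

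**Figure D2:**
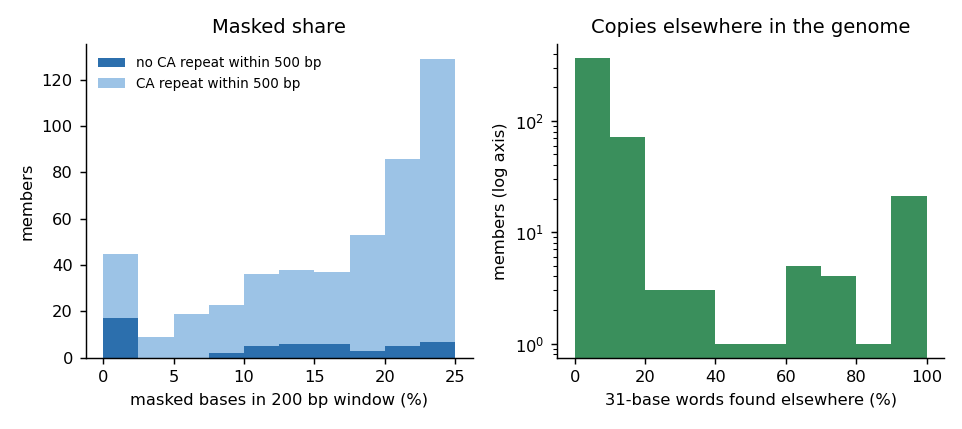
Left, number of members by the masked share of the 200 bp window (%), with members split by a CA repeat within 500 bp. Right, number of members (log axis) by the share of their 31-base words found elsewhere in the genome (%). The counts rise toward the 25% limit, and the 21 members with all words repeated form the last bar on the right.

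Members became more frequent toward the limit of 25%. There were 38 with no masked base, 58 with some but under 10%, 164 from 10 to 20% and 215 from 20 to 25%. A CA repeat was nearby in 21 of the 38 members without a masked base (55.3%, Wilson 39.7 to 69.9) and in 203 of the 215 nearest to the limit (94.4%, 90.5 to 96.8). In the classes between, the CA share was 96.6% (under 10%) and 87.8% (10 to 20%). TNGCGTG was present in 6 of the 38 (15.8%), 1 of the 58 (1.72%), 14 of the 164 (8.54%) and 9 of the 215 (4.19%), so neither share followed masking in order. Just inside the limit, 44 members were 24.5% masked, with a median score of 5.32 and TNGCGTG in 1. Just outside, 34 peaks were 25% masked, with a median score of 5.15 and TNGCGTG in 1.

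The members were not distinguished by their scores. The score is a fold enrichment of ChIP over background that the authors deposited. It ranged from 1.87 to 31.6 with a median of 5.26 (quartiles 4.47 and 5.98), and over the wild type peaks on these chromosomes the median was 5.32 (quartiles 4.54 and 5.98). Most members therefore rest on few fragments. For 292 members (61.5%) the score was a whole multiple of 0.332, within 0.0002, which corresponds to a genome background of 2.01 fragments, and the pileup read from it had a median of 15 fragments (9 to 94).

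The 16 members with scores of at least 10 were of 2 kinds. In 11 of them there was a CA repeat within 500 bp. The highest score of all, 31.6, was at chr10:125961496-125962195, 4322 bp upstream of Lrig3, which encodes a leucine-rich repeat membrane protein. That window had no masked base, but CA repeats flanked it on both sides. The next were at chr11:43410450-43411071 near Pttg1, which encodes securin (26.6), at chr8:119668463-119668826 in an intron 2280 bp inside Wfdc1 (23.4), and at chr8:61606589-61607166 near Palld, which encodes the actin-associated protein palladin (21.6). Peaks near Ly6g6d (18.4), D030056L22Rik (18.3) and Bbox1, an enzyme of carnitine synthesis (13.02), also had CA repeats nearby. None of these 7 held TNGCGTG.

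The other kind had no CA repeat within 500 bp and comprised 5 of the 16. The highest of these was at chr14:99579317-99580039, with a score of 16.9 and no copy of GCGTG. It lay 280524 bp downstream of the start of Klf5, a zinc-finger factor of intestinal crypts. A peak in an intron of Macrod2, at chr2:140848039-140848355, scored 14.95 with 2 copies of GCGTG and none of TNGCGTG. The peak at chr3:65659259-65659663 scored 13.5. It was 173 bp from the annotated start of Mir8120 and 6767 bp upstream of Lekr1, its window was 74.0% GC with 25 CpG, and Tiparp, an AHR target gene that encodes an ADP-ribosyltransferase, started 113421 bp away. The peak at chr13:74259915-74260186 scored 10.97 and lay in an intron 621 bp inside Ahrr, which encodes the repressor that AHR itself induces. An intronic peak in Myo16 at chr8:10589533-10589778 also scored 10.97 and held 3 copies of GCGTG but no TNGCGTG.

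**Figure D3:**
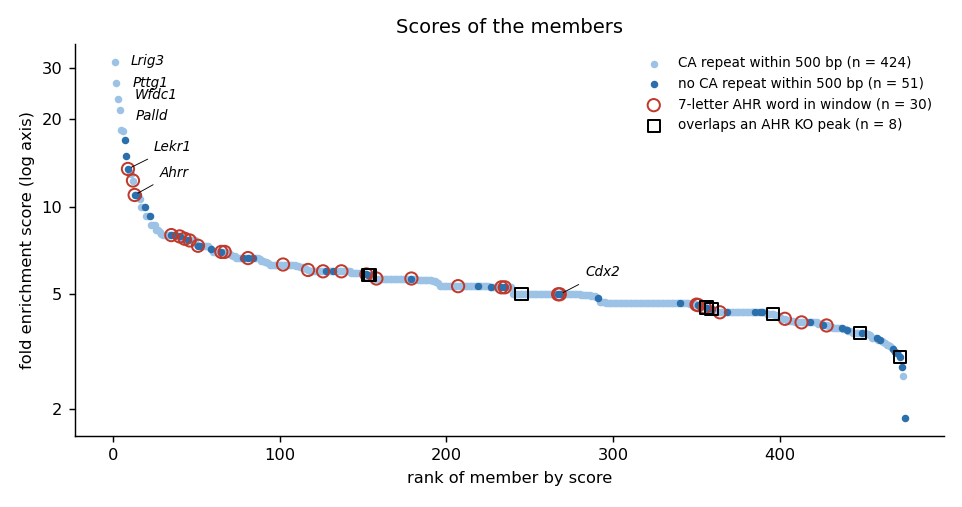
Fold enrichment score (log axis) of each of the 475 members against its rank, with colour for a CA repeat within 500 bp, red rings for the 30 members with TNGCGTG and squares for the 8 that overlap an AHR KO peak. The highest peaks, near Lrig3, Pttg1, Wfdc1 and Palld, have neither mark, and the lowest square is at 3.03.

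AHR words were more frequent in the members than in sequence beside them. TNGCGTG was present in 30 of 475 members (6.32%, Wilson 4.46 to 8.87), against 2.84% of all wild type peaks, and GCGTG in 95 (20.0%, 16.6 to 23.8), against 17.7%. Among the 354 members with a flank, TNGCGTG was in 6.50% and in 1.98% of the flanks, a difference of 4.52 percentage points (Newcombe interval 1.57 to 7.75). GCGTG was in 20.1% and 8.76%, a difference of 11.3 points (6.17 to 16.4). Of the genome windows taken every 1000 bp, 1.38% held TNGCGTG and 6.65% held GCGTG. Weighted to the members' numbers of CpG, these became 1.64% and 8.37%, and the members stood 4.68 points (2.82 to 7.23) and 11.6 points (8.28 to 15.5) above them.

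The AHR words were concentrated in the members away from CA repeats. Of the 51 members without a CA repeat within 500 bp, 14 held TNGCGTG (27.5%, Wilson 17.1 to 40.9) and 25 held GCGTG (49.0%). Of the 424 with one, 16 held TNGCGTG (3.77%, 2.34 to 6.04) and 70 held GCGTG (16.5%). The difference in TNGCGTG was 23.7 points (Newcombe 13.1 to 37.2). In genome windows without a CA repeat the share was 1.34%, or 2.94% when weighted to the CpG of these members. The 51 members were richer in GC, with a median of 53.0% against 44.0% in the other 424. The members with a CA repeat were also above the genome windows, by 2.40 points (0.960 to 4.67). Without the members whose 31-base words recur elsewhere, 45 remained away from CA repeats, and all 14 with TNGCGTG were among them (31.1%).

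**Figure D4:**
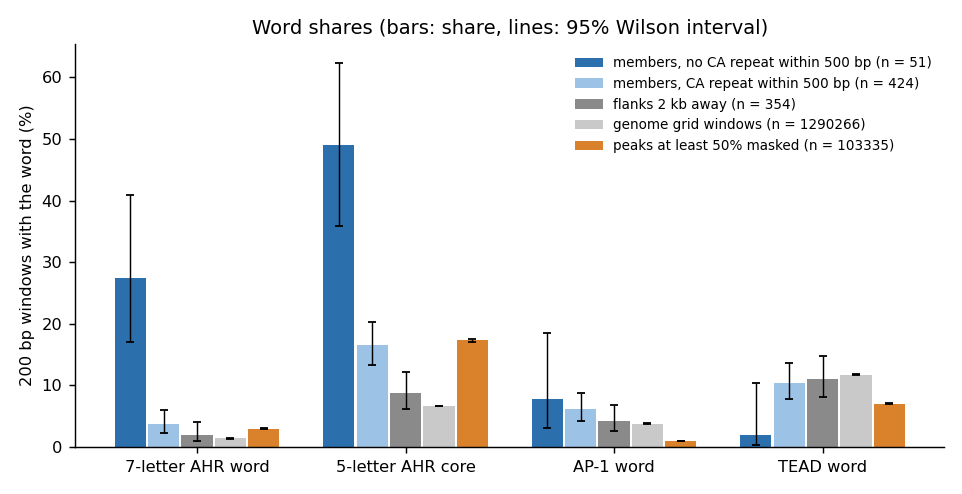
Share of 200 bp windows (%) with TNGCGTG (7-letter AHR word), GCGTG (5-letter core), the AP-1 word and the TEAD word, in members without and with a CA repeat within 500 bp, flanks, genome windows and peaks at least 50% masked outside promoters. Bars are shares and lines 95% Wilson intervals, and for both AHR words the 51 members without a CA repeat have the highest bars, at 27.5% and 49.0%.

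In these 51 members the words sat at the peak centre. TNGCGTG occurred in 8 of 51 windows (15.7%) in the 100 bp left of the midpoint and in 8 in the 100 bp right of it. In the 8 bins of 100 bp farther out it occurred in 0 to 3 members. GCGTG was in 16 of the 51 (31.4%) on each side of the midpoint and in 1.96% to 17.6% in the outer bins. In the 424 members with a CA repeat, TNGCGTG reached 1.89% on each side of the midpoint, and GCGTG was more frequent from 200 to 100 bp on the left (13.4%) than beside the midpoint (9.67% and 9.43%). That bin also holds many of the CA runs. In the flanks TNGCGTG stayed between 0.282% and 1.13% in every bin.

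**Figure D5:**
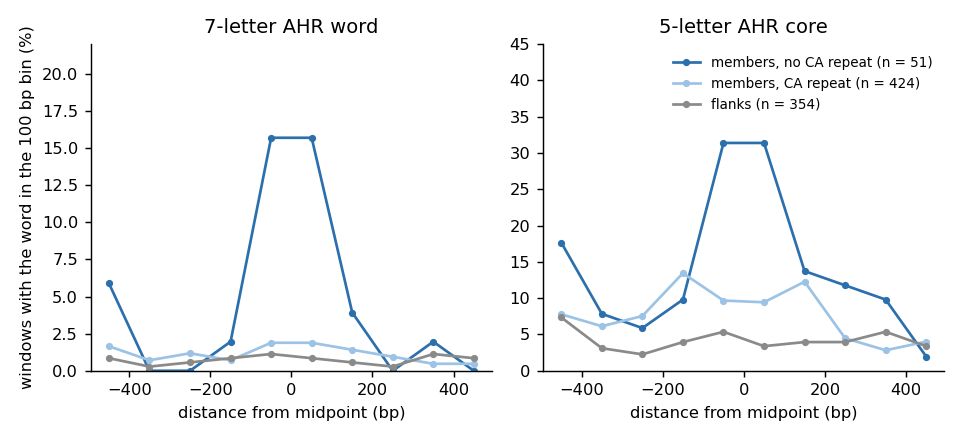
Share of windows (%) with TNGCGTG (left) and GCGTG (right) in each 100 bp bin, against distance from the midpoint in bp, for members without a CA repeat within 500 bp (n = 51), members with one (n = 424) and flanks (n = 354). In the members without a CA repeat, the bins on each side of the midpoint reach 15.7% and 31.4%.

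Among all 512 words of 5 bases, counted with their reverse complements, GCGTG was 4th by the ratio of its share in the 51 members without a CA repeat to its share in 25806 of the genome windows, at 7.16 times. The words before it were CGCGA (14 times), ACGCG (11.7 times) and CCGCG (7.81 times). The 25806 windows were not weighted for CpG and not restricted to those without a CA repeat. Against all genome windows without a CA repeat, the ratio for GCGTG was 7.67. Weighted to the CpG of the 51 members, those windows held GCGTG in 15.6%, against 49.0% of the 51. Over all 475 members against the flanks GCGTG was 6th, at 2.28 times, and CGCGA was first at 4.72 times. These words contain CpG, and several overlap one another within TCGCGTG, so their ranks are not separate observations.

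AP-1 is a family of FOS and JUN dimers that binds TGACTCA. The word was in 30 members (6.32%, Wilson 4.46 to 8.87), against 1.28% of all wild type peaks, but the difference from the flanks was 1.98 points with an interval that included 0 (-1.38 to 5.42). In members with a score of at least the wild type median it was 5.92 points (0.361 to 11.8). TEAD factors, the DNA-binding partners of YAP, bind GGAATG. This word was in 45 members (9.47%, 7.16 to 12.4), against 7.24% of all wild type peaks, and the difference from the flanks was -1.41 points (-5.95 to 3.12). Against peaks at least 50% masked outside promoters, TNGCGTG was 3.38 points (1.52 to 5.94) more frequent in the members and AP-1 was 5.35 points (3.49 to 7.91) more frequent, whereas GCGTG differed by 2.67 points with an interval that included 0 (-0.690 to 6.51). This comparison was not particular to AHR or AP-1 words. Of the 15 words searched 12 were more frequent in the members than in those masked peaks, among them the GATA word by 7.09 points (4.48 to 10.3), the CDX word by 5.39 (2.78 to 8.60) and the TEAD word by 2.43 (0.105 to 5.40). Where neither class had a CA repeat within 500 bp, 9 words were called higher in the members. The TEAD word alone was called lower, at 1.96% and 10.3% (-8.38 points, -10.0 to -0.0320). The intervals for CDX (-5.43 points, -7.06 to 2.92) and GATA (0.898, -1.95 to 10.2) included 0. Of the 45 members with the TEAD word, 44 had a CA repeat nearby.

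The other 11 words searched, on both strands, were ACGTG, the E-box CACGTG, which contains it, TTTATNG for CDX, CAAAGTCCA for HNF4, AGATAA for GATA factors, CCGGAAG for ETS, CTTTGAT for TCF/LEF, GGGCGG for SP/KLF, TGACNNNGC for NRF2, TGTTTAC for forkhead factors and the CTCF word. Against the flanks, none of the 11 had an interval that left out 0. Against genome windows weighted for CpG, the SP/KLF word was more frequent in the members (6.11% and 3.55%, a difference of 2.56 points, 0.735 to 5.08), and the E-box was at 3.58% and 2.19% (1.39 points, 0.0610 to 3.47). The 32 members whose 31-base words recur elsewhere held 11 of the 29 members with the SP/KLF word and 8 of the 17 with the E-box. Without those 32, and with windows weighted to the CpG of the other 443, the SP/KLF word was at 4.06% and 2.35% (1.72 points, 0.240 to 3.99), and the E-box at 2.03% and 2.08% (-0.0498 points, -1.01 to 1.73), so the call for the E-box was lost. Over all wild type peaks the SP/KLF word was at 1.29% and the E-box at 2.25%. The SP/KLF word was in 12 of the 51 members without a CA repeat (23.5%), against 7.29% of genome windows weighted to their CpG (16.2 points, 6.72 to 29.5). In the same comparison the forkhead word was also higher, at 7.84% and 2.89% (4.95 points, 0.199 to 15.6). The TEAD word was lower, at 1.96% and 11.2% (-9.20 points, -10.8 to -0.856). The HNF4 word was in 0 of 475 members, which allows a share of up to 0.632%, and in 0.305% of genome windows.

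Members with TNGCGTG had somewhat higher scores. Their median was 5.91 (quartiles 4.98 and 7.24, n = 30) against 4.98 (4.40 and 5.98, n = 445) without the word, and the ranges overlapped almost entirely. In the 51 members away from CA repeats the medians were 6.24 (n = 14) and 4.49 (n = 37). With the core GCGTG in place of TNGCGTG they were 6.65 (n = 25) and 4.32 (n = 26) in the same 51. In the 424 with a CA repeat the medians were 5.81 with TNGCGTG (n = 16) and 4.99 without it (n = 408), but for the core the order was the opposite, with 4.98 (n = 70) and 5.26 (n = 354). Over all members the core separated the medians by 0.323. Across the 51 peaks, Spearman's rank correlation between the score and the number of GCGTG was 0.496, and with GC content it was 0.313; over all 475 the first was 0.0613. These peaks share libraries and differ in base composition, so the values are descriptive.

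The 14 members with TNGCGTG and no CA repeat lay near genes of several kinds. Besides the peaks near Lekr1 and Ahrr, they included 1 that was 12938 bp upstream of Smox, which encodes spermine oxidase (score 7.97). Another lay 141 bp inside the noncoding gene Gm4876 and 106100 bp from Tes, which encodes the focal adhesion protein testin (7.89). An intronic peak 1993 bp inside B3galt5, a galactosyltransferase gene, scored 6.65 and held 5 copies of GCGTG, 1 of them within TNGCGTG. A peak 18586 bp upstream of Cldn3, which encodes a tight junction claudin, scored 5.27. The peak 7607 bp downstream of the Cdx2 start, at chr5:147299573-147299752, scored 4.98, below the wild type median. The nearest coding starts of the remaining 7 belonged to Ptprc, Eml4, Mrpl45, Btbd16, BC029722, Tnrc18 and Slc39a11, with scores from 4.57 to 7.33. The one assigned to Slc39a11 lay inside the noncoding gene 2610035D17Rik, 3088 bp from its start.

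Of the 10 highest-scoring members with TNGCGTG, 4 had a CA repeat nearby. They included the peak in an intron 84262 bp from the start of Arhgap10, which encodes a GTPase-activating protein (12.3), a second peak near Klf5, at chr14:99385718-99385964 and 86687 bp from its start (7.64), and one 93298 bp from Tox3 (6.98). Klf5 was thus the nearest coding gene of 2 members.

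Most members were in introns or between genes. By the annotation at the midpoint, 248 were intergenic (52.2%, Wilson 47.7 to 56.7), 212 were in introns (44.6%, 40.2 to 49.1) and 15 were in exons (3.16%, 1.92 to 5.14). Of the 15 in exons, 4 were in coding sequence, 5 in untranslated regions and 6 in exons of noncoding transcripts. Genome windows under the same limits were 47.1% intergenic, 46.6% intronic and 6.38% exonic, so exons were less frequent among the members than in these windows (a difference of -3.22 points, Newcombe -4.46 to -1.24). Against the members' own flanks the difference was not called, at 3.67% and 4.52% (-0.847 points, -3.94 to 2.19). Among peaks the order was the other way, since 0.962% of all wild type peaks were exonic, and against peaks at least 50% masked outside promoters the members were 2.34 points higher (1.10 to 4.33). Exonic members were 6 of the 51 without a CA repeat (11.8%) and 9 of the other 424 (2.12%), a difference of 9.64 points (3.11 to 21.3). The highest-scoring of them, at chr19:23135361-23135635, lay in the noncoding gene 2410080I02Rik, 5728 bp upstream of Klf9 (9.95).

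Members were nearer to genes than the genome windows and the masked peaks, while the difference from their own flanks was not called. The median distance to the nearest protein-coding start was 27232 bp in the members, 27636 bp in the flanks and 43893 bp in the genome windows. Within 50 kb of such a start were 294 members (61.9%, Wilson 57.4 to 66.2) and 52.5% of the genome windows, a difference of 9.39 points (4.94 to 13.6), and with the flanks the difference was 0.847 points (-6.33 to 8.01). All wild type peaks were at 51.8%, and against peaks at least 50% masked outside promoters the members stood 11.8 points higher (7.34 to 16.1). Within 10 kb of any start were 196 members (41.3%, 36.9 to 45.7) and 37.0% of the genome windows, with an interval of the difference that included 0 (-0.111 to 8.71), and against the masked peaks they stood 6.70 points higher (2.35 to 11.2). The members were spread over 443 different nearest protein-coding genes. Of these, 18 were nearest to 2 or more members, led by Ezh2 and Pdia4 with 8 each, all in the chromosome 6 array. Chromosome 6 held 49 members (0.656% of its wild type peaks), chromosome 1 held 50 (0.516%) and X held 2 (0.114%). Y held none among its 690 peaks, which allows a share of up to 0.435%. Over these chromosomes together, 475 of 123366 peaks were members, a share below that bound, so Y was not shown to differ.

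The gene lists gave few hits. Of all 21911 protein-coding genes, 1.32% were the nearest coding gene of a member within 50 kb, and 2.78% had a member within 50 kb of a start. Among 12 AHR battery genes, Ahrr was the only one nearest to a member (8.33%). Cyp1b1, which encodes a xenobiotic-metabolising P450, had a member 49907 bp away, at chr17:79663482-79664014, with a score of 8.64, no GCGTG, a CA repeat nearby and Rmdn2 as its nearest gene. None of the other 10, Cyp1a1 and Nqo1 included, had a member within 50 kb. Of 12 colonic identity genes, Cdx2 was the only one with a member in that range, and Sox9 had its nearest member 365719 bp away, in an intron of 2610035D17Rik. None of the 11 Wnt genes, the 12 YAP and TEAD genes, the 7 fetal-like genes or the 7 differentiation genes had a member within 50 kb. With lists of this size, 1 gene moves the share by 8.33 points or more.

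AHR KO peaks overlapped 8 of the 475 members (1.68%, 95% Clopper-Pearson interval 0.730 to 3.29), against 1.46% of all wild type peaks on these chromosomes. The share was near that background and also near the 1.63% of peaks at least 50% masked outside promoters, with a difference of 0.0536 points (Newcombe -0.779 to 1.66). The AHR KO list held 1931 peaks and came from 1 library, whereas wild type had 4. Its scores were whole multiples of 0.777, within the same 0.0002, in 334 of the 1931, which corresponds to a background of 0.287 fragments, against 2.01 in wild type. Library depth itself was not analysed here, so a missing AHR KO peak at the other members cannot be told apart from fewer fragments.

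Of the 8 members with an AHR KO peak, 7 are described here, with scores between 3.03 and 5.81. None of the 8 held TNGCGTG, although 0 of 8 allows a share of up to 37.5%. The 7 lay near Rab39b (chrX:75656527-75657037, 5.81), Slamf6 (chr1:171963048-171963656, 4.98), Gm10800 (chr2:98664800-98665321, 4.49), Tmem125 (chr4:118547144-118548789, 4.43), Nobox (chr6:43343628-43343945, 4.26), Brinp3 (chr1:146754077-146754358, 3.66) and Cldn34d (chrX:76598876-76599190, 3.03). Both members on X were among them. Every 31-base word of the Rab39b and Tmem125 windows was found elsewhere, and 57.6% of those of the Gm10800 window. The Tmem125 peak, 1646 bp wide, was the widest of all members. Of the 51 members without a CA repeat 4 overlapped an AHR KO peak (7.84%), and of the 424 with one also 4 (0.943%), a difference of 6.90 points (1.93 to 17.6). Without the members whose words recur elsewhere, the counts were 2 of 45 (4.44%) and 3 of 398 (0.754%), a smaller difference of 3.69 points (0.167 to 14.1).

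Under the same rule, the AHR KO list held 21 peaks, of which 19 overlapped a wild type peak of any kind. None of the 21 had TNGCGTG, which allows a share of up to 14.3%, while 2 had GCGTG and 8 had a CA repeat within 500 bp. These counts have no share over all 1931 AHR KO peaks beside them, so they are not read as traits of the 21. The median score of the 21 was 6.31 (2.36 to 11.6). None of the 14 members with TNGCGTG and no CA repeat overlapped an AHR KO peak. Only 1.46% of all wild type peaks did, so 14 members are too few to show a lower share. With 1 AHR KO library of depth not analysed here, a lower signal and missing coverage at these positions cannot be told apart.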

How the data were processed

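AHR ChIP-seq and input libraries came from FICZ-treated wild type (4 each) and AHR KO (1 each) mouse colon organoids. Per the study's methods and the submitters' processing notes, 101 bp single-end reads were aligned to mm10 with BWA 0.7.15, duplicates were marked with Picard 2.1.1, peaks were called with MACS2 2.1.1 and motifs were analysed with HOMER 4.8. How reads matching several positions were treated is not given in the sources used here. The authors deposited 1 peak list per genotype, in which each peak has coordinates and a fold enrichment, a ratio of ChIP pileup plus 1 to background plus 1. The unit was read from the values. Library depth was not analysed here. Starts were read as counted from 0.

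Windows of 200 bp, masking and words were read from GRCm38 and starts from GENCODE M21, in Python 3.11.15 with numpy, scipy, pandas and numba. Flanks lay 2 kb away and genome windows every 1000 bp, both under 25% masked, outside promoters and peaks. Neither was matched to the members' masked share. Genome windows were weighted to the members in 7 classes of CpG number. A difference of shares was called where its 95% interval left out 0. The interval was Newcombe's, except against CpG-weighted windows. There it was the Wilson interval of the members' share less the weighted share, which was taken as fixed. Peaks are not replicates, so no p-value is given. The word searches, the intervals and the weighting were tested on simulated data.

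The members, gene lists, words and tests were chosen with earlier results of these data known. Named in the text are the 10 highest members, the 10 highest with TNGCGTG, all that overlap an AHR KO peak, and those within 50 kb of a listed gene, except a few that are not reported here. The peaks named beyond that, the split by CA repeat, the GA count, the array and the reading of the score steps were chosen after the values were seen. Of the 62 alternatives tried, 38 were planned and 24 were added.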

Additional observations from a re-analysis of the deposited data

How the results depend on the processing

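The excess of TNGCGTG and GCGTG over the flanks kept its call with flanks 5 kb away, CpG-weighted genome windows, a 100 bp window, higher-scoring members, non-recurring members and peaks without CA repeats. Without CA repeats the excess was larger, at 25.9 points for TNGCGTG and 42.1 for GCGTG, from 36 members and 266 flanks. The TNGCGTG difference from masked peaks, 3.38 points, was 22.6 without CA repeats and 6.61 in higher-scoring members. The excess over the flanks lost the call under 10% masking, at 7.84 points for each word, where 51 pairs remained. The AP-1 difference gained a call against CpG-weighted windows (2.65 points) and in higher-scoring members (5.92). The interval of the TEAD difference included 0 in all planned settings, and the difference changed sign with a 100 bp window (0.847), under 10% masking (3.92) and in higher-scoring members (2.96), and it was called in members and flanks without CA repeats (-10.9). Against CpG-weighted windows, the E-box difference changed sign without recurring members (-0.0498). The number of members was 96 under 10% masking, 16389 under 50% masking and 51 without a CA repeat. The score difference by word was 0.323 for GCGTG and 1.76 without CA repeats. The AHR KO share was 7.84% without CA repeats. Within 10 kb of a start were 28.0% for protein-coding starts and 49.0% without CA repeats, 39.8% lay in introns of protein-coding genes, and 4.42% had all words elsewhere. In all, 43 of the 62 alternatives kept direction and call, or stayed within the interval or 1.5 times of the value reported. Those said above to keep their call are among the 43, whatever their size.

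The settings on CA repeats and recurring words were chosen after seeing the data. For cultures, no paired analysis was possible because peaks carry no culture-level value, and none could be left out. With each member paired with its own flank, added last, the calls were the same for TNGCGTG (1.57 to 7.74) and GCGTG (6.38 to 16.3) and, with 0 inside the interval, for AP-1 and TEAD. The wild type list may rest on fewer than 4 cultures at any peak, and median pileups of 15 fragments limit precision. With 51 members away from CA repeats, shares have wide intervals.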
